A study of Mus musculus with 36 samples.

Results

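The 7 genes described here mark naive T cells, by how such cells find lymph nodes and by the factors that hold their identity. They are Ccr7, Il7r, Klf2, Lef1, Tcf7, Satb1, and Bcl11b, chosen as every non-control probe of the array whose annotated gene name is one of these symbols, which gave 10 probes. They are 7 of the 31093 gene names on the array and 7 of the 15076 genes that passed the filters on background and variation, so that no member was lost. Blood was taken from 36 male C57BL/6J mice, 8 to 10 weeks old at exposure by the study's methods, and 1 single-colour Agilent array was hybridized per mouse. Each of 6 groups held 6 mice, all sampled at day 7. The controls were sham-irradiated, and the x-ray group received 3 Gy. In the mixed field groups neutrons made up 5, 15, or 25% of a total of 3 Gy. The last group received a neutron exposure of 0.75 Gy with no x-rays, which the array titles give as 100% although the source also emits photons, and it differed from the others in total dose as well as in kind. It is called neutron alone here. The RNA came from whole blood cleared of globin transcripts, so that every value sums over all blood cells.

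Naive T cells circulate through blood and lymph nodes until they meet their antigen. Ccr7 is the chemokine receptor that draws them into lymph nodes along Ccl19 and Ccl21, and Il7r is the receptor chain through which interleukin-7 keeps them alive. Klf2 is a transcription factor that holds T cells quiescent and drives genes of trafficking such as S1pr1. Lef1 and Tcf7 are related HMG-box factors of the Wnt pathway, Satb1 organizes chromatin in T cells, and Bcl11b is a zinc-finger factor that keeps T cells in their lineage. T cells that turn into effector cells lower Ccr7, Il7r, Klf2, Lef1, and Tcf7. Cd3e, a subunit of the T-cell receptor complex that naive and effector T cells share, was therefore set beside them. In whole blood, fewer cells of a type and less RNA per cell cannot be told apart. Mature B cells also express Ccr7 and Klf2.

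Lef1, Tcf7, and Bcl11b each had 2 probes, and the first 30 of the 60 bases of these probes are shown because the probes of a gene did not change alike, as described further on. Positions are those of the array annotation on mm9, and the exon or untranslated region that a probe covers was not analysed here. No position was listed for the second Lef1 probe.
Lef1, brighter probe, chr3:130926200-130926259, plus strand: actgcaagcgccgacttccaaaaagaaagc
Lef1, second probe: gtacaggtcccagaatgacagctgcctaca
Tcf7, brighter probe, chr11:52066114-52066173, minus strand: ttttttcattctcgctgtagatagcctgaa
Tcf7, second probe, chr11:52066738-52066797, minus strand: ccaatacttcttggaccaagaatacctggt
Bcl11b, brighter probe, chr12:109153847-109153906, minus strand: acatgtgagtactgcggcaaggtcttcaag
Bcl11b, second probe, chr12:109148932-109148991, minus strand: tttattaccttttctattacgtatcgtatg
The Tcf7 probes lay 624 bases apart in the genome and the Bcl11b probes 4915. The single probes of the other members were at chr11:99005551-99005610 for Ccr7, chr15:9435976-9436035 for Il7r, chr8:74845137-74845196 for Klf2, and chr17:51879137-51879196 for Satb1, with that of Cd3e at chr9:44806828-44806887.

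As the members were lower together, the 250 bases before each annotated start in RefSeq (GRCm38.p6) were searched on both strands for 3 short motifs. These were CACCC, the core that KLF factors bind, CTTTGAA, a form of the core of TCF/LEF factors, and GTAAACA, a form of the FOX core. Starts were found for 6 of the 7 members, all but Ccr7, and were 14 in all. Lef1 had 4 of them and Satb1 5, several of which overlap, so that these genes weigh most in the counts. CACCC stood before 12 of the 14 starts, and before 52% of the 32851 starts of all genes. The 1 start of Il7r had no such match. CTTTGAA stood before 1, that of Bcl11b, against 4.46% of all starts, and GTAAACA before none, against 3.17%. The stretches before the starts of Klf2, itself a KLF factor, and Bcl11b, the member with both kinds of match, are printed with the matches in capitals.
Klf2, chr8:72318812-72319061, plus strand: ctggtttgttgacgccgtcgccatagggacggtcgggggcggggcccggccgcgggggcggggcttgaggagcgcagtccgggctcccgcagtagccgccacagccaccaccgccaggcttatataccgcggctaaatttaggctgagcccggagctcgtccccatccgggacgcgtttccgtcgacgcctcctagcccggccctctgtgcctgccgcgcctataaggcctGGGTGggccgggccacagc
Bcl11b, chr12:108003415-108003664, minus strand: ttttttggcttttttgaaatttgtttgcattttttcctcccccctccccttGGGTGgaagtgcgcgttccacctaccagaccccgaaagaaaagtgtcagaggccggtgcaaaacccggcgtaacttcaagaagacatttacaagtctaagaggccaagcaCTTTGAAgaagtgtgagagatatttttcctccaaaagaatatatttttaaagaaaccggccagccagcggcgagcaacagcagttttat
In the Klf2 stretch the match began at position −19 from the start, and in the Bcl11b stretch the KLF match began at −199 and the TCF/LEF match at −89. These are matches of letters and not sites shown to be bound.

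All levels below are log2 intensities with the median of each array set to 0, and all changes are differences of group means on that scale, taken from the brightest probe of a gene. Differentially expressed means p below 0.001 together with an adjusted p below 0.05 by limma, with Benjamini-Hochberg adjustment over all 15076 genes. Each array had 15564 to 21293 probes well above background, and the group medians ran from 16558 (neutron alone) to 19919.5 (controls). The brightest probe of every member was well above background on all 36 arrays, the second Tcf7 probe was on 33 and the second Bcl11b probe on 26, and no member probe was saturated. The arrays had been scanned in 4 sessions. Session 1 held 5 controls and 5 x-ray arrays, session 2 held 5 arrays each of the 5 and 15% groups, session 3 held all arrays of the 25% and neutron alone groups, and session 4 held 1 array each of the controls, x-rays, 5%, and 15% groups. For the 25% and neutron alone groups, scan session and exposure therefore cannot be told apart in any comparison with controls or x-rays.

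Against controls, the members were lower after every exposure. After x-rays 7 of 7 members were differentially expressed and lower, where 16.9% of all genes were. After the 5% mixed field 6 were, against 14% of all genes, and after the 15% mixed field 5 were, against 16.6%. In the 25% mixed field it was 5 members, against 13.9%, and after neutron alone 3, against 20.4%. No member was differentially expressed and higher, where 12.9, 9.01, 12.6, 10.9, and 16.1% of all genes were, in the same order. The median change of the members was −1.52 after x-rays, −1.89, −1.76, and −1.13 after the 5, 15, and 25% mixed fields, and −0.91 after neutron alone, while the median over all genes lay between −0.12 and −0.02. The order of these medians depended on the processing, as the median was −1.36 in the 25% field and −1.42 after neutron alone in the deposited table, and −1.60, −1.40, and −1.89 in the 15 and 25% fields and after neutron alone with normexp background correction. With the arrays centred on their 75th percentile instead, the median over all genes was 0.44, 0.19, 0.30, 0.11, and 0.29, and 5, 5, 5, 5, and 2 members were differentially expressed and lower. Lower genes made up 56.9, 60.9, 56.8, 56.1, and 55.9% of all differentially expressed genes with the median and 37.6, 51.6, 46.4, 48.8, and 37.8% with the percentile. The change of Cd3e was smaller in size than that of any member in each exposure, at −0.41, −0.68, −0.44, −0.12, and 0.12 in the same order, and it was differentially expressed in none. With normexp 3, 3, 1, 2, and 1 members were differentially expressed and lower. The count of 5 in the 25% mixed field was 2 without control 2 or 3, and 3 without control 5 or 6 or array 3 or 5 of that field.

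**Figure D1:**
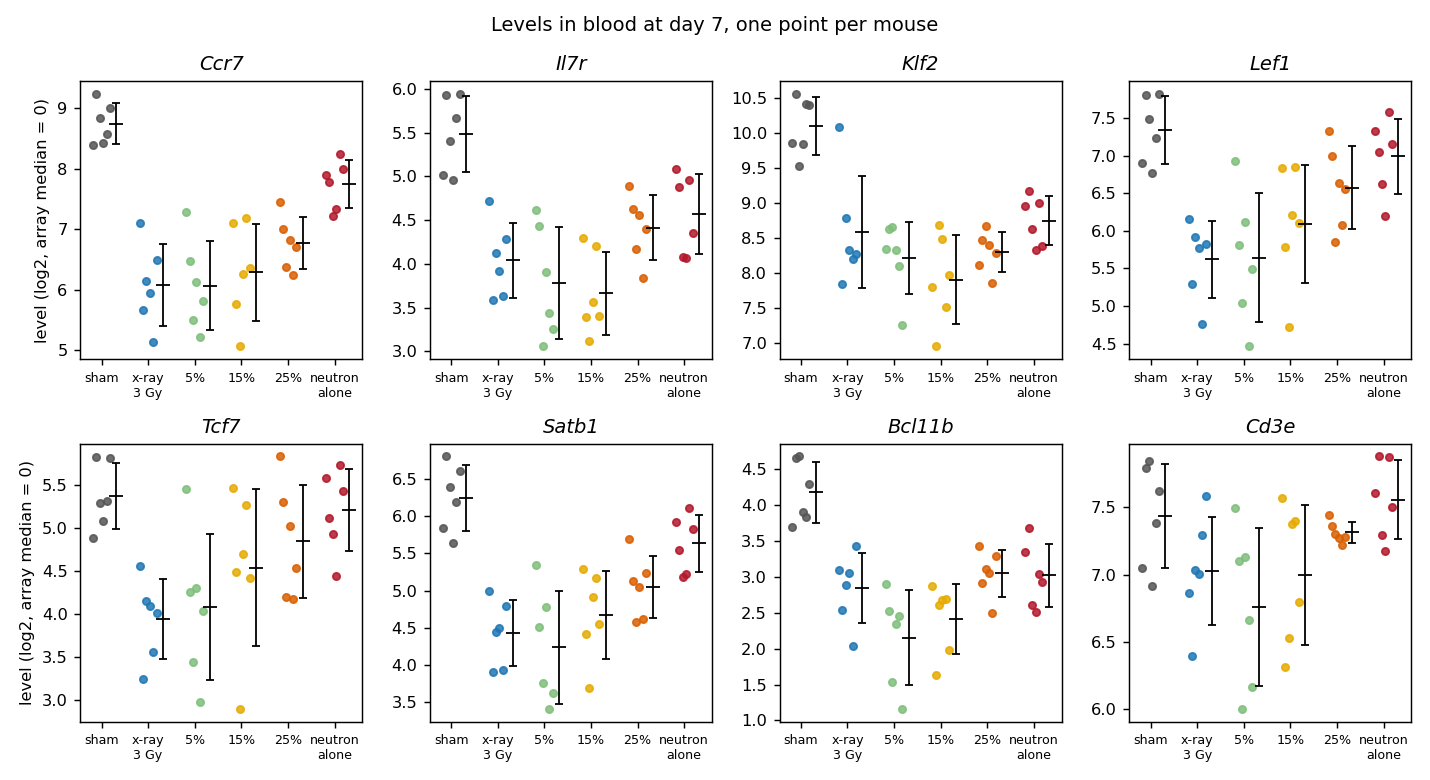
Log2 level (array median = 0) of the 7 members and Cd3e in each of the 6 groups, 1 point per mouse, with the group mean and SD (n = 6) as the bar at the right of each group; the percentages are the neutron fractions of the mixed fields, and each panel has its own axis. Every exposed mouse lay below every control for Ccr7 and Bcl11b, while the groups of Cd3e overlapped throughout.

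Ccr7, the homing receptor, was the member with the largest change in the 4 groups given 3 Gy. Sham-irradiated mice had Ccr7 at 8.40 to 9.24, around a median of 8.71. X-rayed mice had it at 5.14 to 7.11 (median 6.05), those of the 5% field at 5.23 to 7.29 (median 5.97), and those of the 15% field at 5.07 to 7.19 (median 6.31). Values were 6.25 to 7.45 (median 6.77) with the 25% field and 7.22 to 8.24 (median 7.85) with neutron alone. All 30 exposed mice were below the lowest control. Ccr7 changed by −2.67 after x-rays (SE 0.30, adjusted p = 1.71e-05), which is 6.35-fold, and by −2.68, −2.46, and −1.98 in the 5, 15, and 25% fields (adjusted p from 3.23e-05 to 7.62e-05). After neutron alone it fell by 1.00 (SE 0.21, adjusted p = 0.00119), 2.00-fold. At most 2.28% of genes had a larger decrease after a 3 Gy exposure, and 16.6% had one after neutron alone.

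Il7r, the interleukin-7 receptor chain, was lowest after the 15% field. Il7r spanned 4.96 to 5.95 without irradiation, around a median of 5.53. The span was 3.59 to 4.72 (median 4.02) with x-rays, 3.06 to 4.62 (median 3.68) with the 5% field, and 3.12 to 4.30 (median 3.48) with the 15% field. It was 3.84 to 4.89 (median 4.48) with the 25% field and 4.07 to 5.09 (median 4.62) with neutron alone. The 4 groups given 3 Gy did not overlap the controls, and after neutron alone 4 of 6 mice were below the lowest control. Il7r changed by −1.44, −1.70, −1.82, and −1.07 in the x-ray, 5, 15, and 25% groups (SE 0.25 to 0.31, adjusted p from 0.000132 to 0.00307). After neutron alone its change was −0.91, with an adjusted p of 0.006 by limma, which did not pass because its unadjusted value was above the threshold.

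Klf2 was differentially expressed in all 5 exposures and was the member with the largest change after neutron alone. Sham-irradiated mice had Klf2 at 9.54 to 10.57, around a median of 10.13. X-rayed mice had it at 7.84 to 10.09 (median 8.30), those of the 5% field at 7.26 to 8.66 (median 8.33), and those of the 15% field at 6.95 to 8.68 (median 7.89). Values were 7.86 to 8.68 (median 8.34) with the 25% field and 8.32 to 9.17 (median 8.79) with neutron alone. With x-rays 1 mouse reached the control range. No mouse exposed to neutrons reached the control range. Klf2 changed by −1.52 after x-rays (SE 0.35, adjusted p = 0.00252), by −1.89, −2.20, and −1.80 in the 5, 15, and 25% fields, and by −1.36 after neutron alone (SE 0.22, adjusted p = 0.00015).

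Lef1 and Tcf7, the HMG-box factors, shared 1 order of group means by their brighter probes: x-rays lowest, then the 5, 15, and 25% fields, then neutron alone, then controls. By their second probes the 5 and 15% fields lay below x-rays, with means of 3.79, 3.94, and 4.21 for Lef1 and of 1.14, 1.24, and 1.65 for Tcf7. By its brighter probe Lef1 spanned 6.77 to 7.82 without irradiation, around a median of 7.36. The span was 4.76 to 6.15 (median 5.79) with x-rays, 4.46 to 6.93 (median 5.65) with the 5% field, and 4.73 to 6.85 (median 6.16) with the 15% field. It was 5.85 to 7.33 (median 6.60) with the 25% field and 6.20 to 7.58 (median 7.10) with neutron alone. The x-ray group lay wholly below the controls and the other groups overlapped them by this probe, whereas by the second probe only the neutron alone group did. Lef1 changed by −1.72 after x-rays (SE 0.28, adjusted p = 0.000258) and by −1.70 after the 5% field (SE 0.37, adjusted p = 0.0024). Its changes of −1.25, −0.76, and −0.35 in the 15 and 25% fields and after neutron alone did not pass.

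By its brighter probe, Tcf7 was the member with the smallest change in the 4 neutron-containing groups, while its second probe changed by −1.88, −1.78, −1.35, and −1.27 there. By the brighter probe, sham-irradiated mice had Tcf7 at 4.88 to 5.83, around a median of 5.30. X-rayed mice had it at 3.25 to 4.56 (median 4.06), those of the 5% field at 2.98 to 5.45 (median 4.15), and those of the 15% field at 2.90 to 5.46 (median 4.60). Values were 4.18 to 5.83 (median 4.78) with the 25% field and 4.44 to 5.73 (median 5.27) with neutron alone. By this probe all 6 mice were below the controls after x-rays and in no other group, and by the second probe all 6 were after the 15% field and 5 of 6 in each of the other exposures. Tcf7 changed by −1.43 after x-rays (SE 0.25, adjusted p = 0.000528). The changes of −1.29, −0.83, −0.52, and −0.16 elsewhere did not pass, and the last of them, after neutron alone, was above 0 under 3 other scalings of the arrays (0.0013 to 0.11).

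Satb1, the chromatin organizer, was lowest after the 5% field. Satb1 spanned 5.63 to 6.80 without irradiation, around a median of 6.29. The span was 3.91 to 4.99 (median 4.47) with x-rays, 3.41 to 5.35 (median 4.13) with the 5% field, and 3.69 to 5.29 (median 4.73) with the 15% field. It was 4.58 to 5.70 (median 5.09) with the 25% field and 5.19 to 6.10 (median 5.69) with neutron alone. Mice of the 25% and neutron alone groups overlapped the controls, and the other groups did not. Satb1 changed by −1.81, −2.00, −1.57, and −1.19 in the x-ray, 5, 15, and 25% groups (SE 0.26 to 0.35, adjusted p from 0.000115 to 0.00207). Its change of −0.61 after neutron alone did not pass (adjusted p = 0.0369 by limma).

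Bcl11b, the lineage factor, was differentially expressed in all 5 exposures. Sham-irradiated mice had Bcl11b at 3.70 to 4.68, around a median of 4.10. X-rayed mice had it at 2.04 to 3.43 (median 2.98), those of the 5% field at 1.16 to 2.91 (median 2.40), and those of the 15% field at 1.63 to 2.88 (median 2.65). Values were 2.49 to 3.43 (median 3.09) with the 25% field and 2.52 to 3.68 (median 2.99) with neutron alone. Every exposed mouse was below the lowest control. Bcl11b changed by −1.33 after x-rays, by −2.03, −1.76, and −1.13 in the 5, 15, and 25% fields, and by −1.16 after neutron alone (SE 0.24 to 0.32, adjusted p from 0.000171 to 0.00168).

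By the brightest probe of each, 6 members lay wholly below the controls after x-rays, 5 after the 5 and 15% fields, 4 after the 25% field, and 3 after neutron alone. Of all genes 17, 13.8, 16.2, 15.4, and 20.2% did so, in the same order. The control mean was the highest of the 6 group means for every member, and the neutron alone group was the nearest to the controls for 6 of the 7 members, the exception being Bcl11b.

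**Figure D2:**
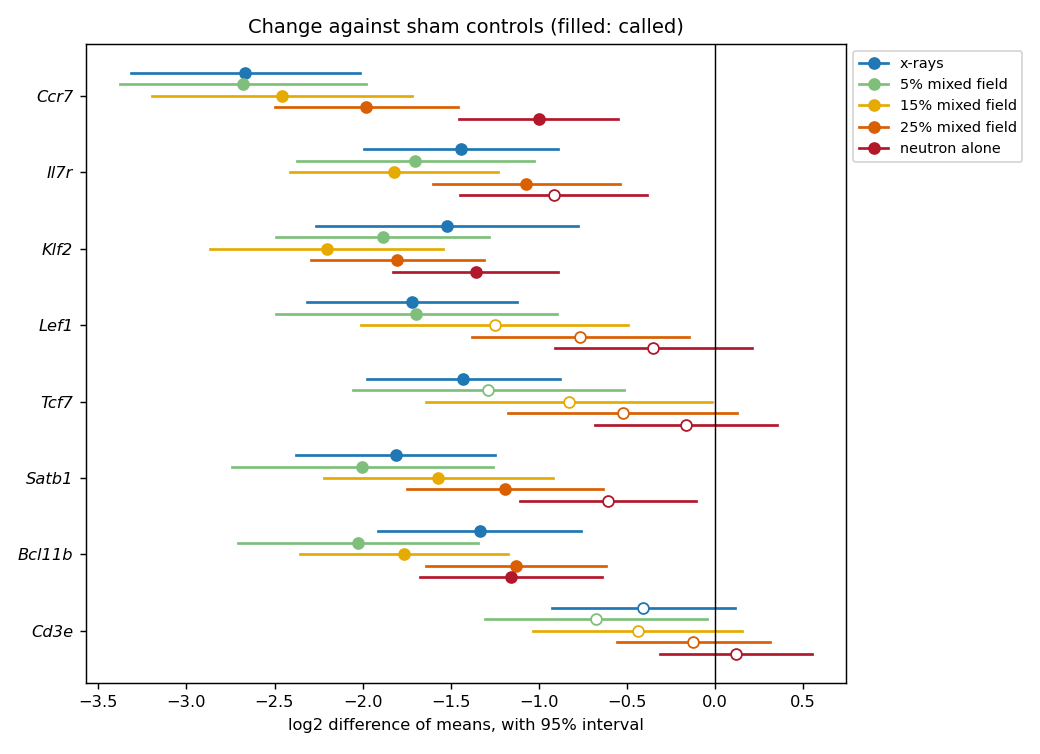
Difference in mean log2 level between each exposure and the controls (x axis) for the 7 members and Cd3e, with the 95% interval from limma (6 mice per group); filled points were differentially expressed. The interval for Ccr7 excludes 0 in all 5 exposures, while that for Cd3e includes 0 in all but the 5% field (−1.31 to −0.05), where its adjusted p was 0.0761.

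Within a scan session the changes could be taken where it held both groups. In session 1 the x-ray group differed from the controls by −2.73 for Ccr7, −1.86 for Satb1, −1.73 for Lef1, −1.57 for Klf2, −1.51 for Il7r, −1.46 for Tcf7, and −1.35 for Bcl11b, with 5 mice in each. In session 4, with 1 mouse per group, all 7 members were lower after x-rays, the 5% field, and the 15% field, with differences of −2.35, −3.62, and −3.78 for Ccr7. With session as a block, 7 members remained differentially expressed after x-rays, none after the 5% field, and 1 (Ccr7) after the 15% field. The last 2 fits rest on those single pairs of mice, and 0.000522 was the smallest p of a member after the 5% field, that of Ccr7 (adjusted p = 0.0611 by limma), with 6 of 7 members at an unadjusted p below 0.05. With slide as a block, 2 remained after x-rays (Ccr7 and Satb1).

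The changes were compared with that of Cd3e by subtracting Cd3e on the same array from every gene, which removes any shift common to all genes of an array. This subtraction asks whether a member changed by another amount than the T-cell receptor subunit did, and the error of the 1 Cd3e probe enters every value. The mean change of all 7 members was below that of Cd3e in each of the 5 exposures. In a list of 15 T-cell receptor and co-receptor genes, Cd3e had the smallest mean change in size over the exposures. Of the other 14 genes, 1, 3, 2, 3, and 6 were differentially expressed and lower relative to Cd3e in the 5 exposures. After the 15% field 1 was higher. Differentially expressed and lower relative to Cd3e were 3 members after x-rays, against 4.39% of 15075 genes, 4 after the 5% field, against 3.16%, and 5 after the 15% field, against 4.81%. It was 5 after the 25% field, against 10.7%, and 5 after neutron alone, against 23.1%. With scan session as a random block the last 2 counts were 2 and 0, with 5 members in each at an unadjusted p below 0.05 by limma. The count of 3 after x-rays was 6 without x-ray array 1.

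Ccr7 fell relative to Cd3e in all 5 exposures, changing by −2.26, −2.00, −2.02, −1.86, and −1.12 (adjusted p from 2.31e-05 to 0.000129). The difference Ccr7 minus Cd3e was between 1.00 and 1.51 in the controls, between −2.15 and 0.24 after x-rays, and between −0.09 and 0.50 after neutron alone. No exposed mouse of any group reached the control range. Satb1 fell relative to Cd3e in all 5 as well, changing by −1.41, −1.33, −1.13, −1.07, and −0.73, again with every exposed mouse below every control. The share of all genes that lay wholly below the controls after this subtraction was not counted.

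Bcl11b and Il7r fell relative to Cd3e in the 4 neutron-containing exposures, changing by −1.35, −1.33, −1.01, and −1.28 for Bcl11b and by −1.03, −1.39, −0.95, and −1.03 for Il7r. After x-rays their differences of −0.93 and −1.04 did not pass (adjusted p = 0.0127 and 0.00723 by limma). Klf2 fell relative to Cd3e, with changes of −1.77, −1.68, and −1.48 in the 15% and 25% fields and after neutron alone. Its changes of −1.11 after x-rays and −1.21 after the 5% field did not pass (adjusted p = 0.0321 and 0.0111 by limma). By its brighter probe, Lef1 passed relative to Cd3e after x-rays alone (−1.31), and its other differences, from −1.02 to −0.47, did not. By its brighter probe Tcf7 passed in none, with differences from −1.02 to −0.28 and limma p between 0.00222 and 0.227. By the brightest probes, the neutron alone group had the smallest difference from Cd3e for Ccr7, Lef1, Tcf7, and Satb1, and not for the other 3 members. The second probes were not fitted relative to Cd3e. After x-rays and neutron alone, Cd3e changed by −0.41 and 0.12 against controls. The second Tcf7 probe changed by −1.38 and −1.27 there, and the second Lef1 probe by −1.70 and −1.06.

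**Figure D3:**
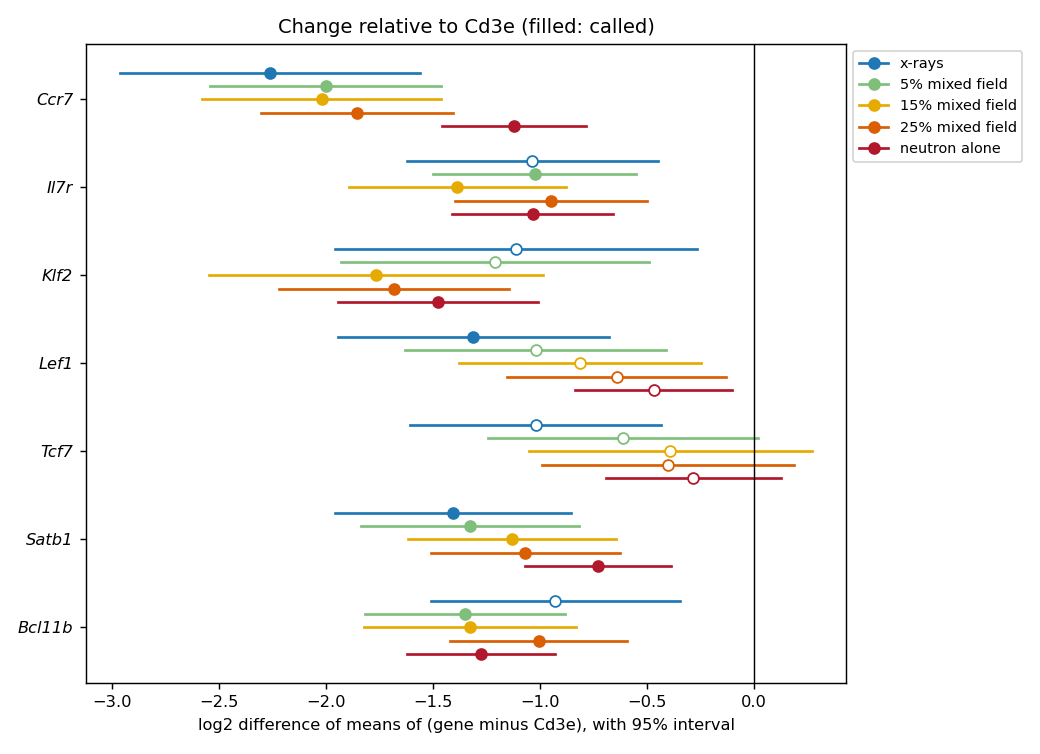
Difference in mean log2 level between each exposure and the controls after Cd3e was subtracted on each array (x axis), for the 7 members, with the 95% interval from limma (6 mice per group); filled points were differentially expressed among 15075 genes. Each gene is shown by its brightest probe. All points lie below 0, and Ccr7 and Satb1 are filled in all 5 exposures while Tcf7 is filled in none.

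Cd3e was set beside the other CD3 chains. Cd3d had changes of −1.05 after x-rays and −0.81 after neutron alone, and Cd3g of −0.80 and −0.65, where Cd3e had −0.41 and 0.12. With the mean of the 3 CD3 genes as the reference, 3 members in place of 5 were differentially expressed and lower in the 15% field, and 1 in place of 5 after neutron alone. Relative to Cd3e in session 4, the 15% mouse was below the control for 6 members, with Ccr7 at −2.47, and above it for Klf2 (0.46). With session as a block, 0 members were differentially expressed relative to Cd3e after the 5% field, with 3 at an unadjusted p below 0.05, and 1, Ccr7, after the 15% field. With slide as a block, 0 were after x-rays, the 5% field, or the 15% field, where limma gave 5, 3, and 3 members at an unadjusted p below 0.05.

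Against x-rays, the question was what changed when neutrons replaced part of the x-ray dose. The total stayed at 3 Gy in the mixed fields, so what neutrons add to a fixed x-ray dose was not tested. No member was differentially expressed after the 5% field, where limma found 0% of all genes higher and 0% lower. None was after the 15% field, against 1.67% of genes higher and 2.46% lower, or after the 25% field, against 0.75% higher and 1.83% lower. With scan session as a random block 4 members (Ccr7, Lef1, Tcf7, and Satb1) were differentially expressed and higher in the 25% field. That fit called 5139 of all genes, 45.3% of them lower, where the main fit called 389. At an unadjusted p below 0.05 the members counted 0, 0, and 3, all 3 of the last (Lef1, Tcf7, and Satb1) being higher. Of all 15076 genes, 1689, 2308, and 2306 were higher at that level and 1813, 1935, and 2111 lower. Over these 3 comparisons the 95% intervals of the members reached from −1.55 (Klf2, 15% field) to 1.63 (Lef1, 25% field), so that differences of that size were not excluded. Where sessions held both groups, these comparisons too rest on 1 mouse of each group.

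Neutron alone left 4 members higher than x-rays, against 6.52% of all genes. Ccr7 was higher by 1.67 (SE 0.31, adjusted p = 0.00181), Lef1 by 1.37 (SE 0.29, adjusted p = 0.00372), Tcf7 by 1.27 (SE 0.27, adjusted p = 0.00436), and Satb1 by 1.21 (SE 0.25, adjusted p = 0.00338). The 2 groups did not overlap for Ccr7, where x-ray mice reached 7.11 and neutron mice began at 7.22. The share of all genes without overlap between these 2 groups was not counted. The other 3 members had differences of 0.53 for Il7r, 0.16 for Klf2, and 0.18 for Bcl11b, which did not pass. By the second probes Lef1 was higher by 0.64 (adjusted p = 0.126 by limma over 21483 probes) and Tcf7 by 0.11 (adjusted p = 0.814), and neither passed. In the deposited table Tcf7 differed by −0.17. The count of 4 was 2 with the mean of the probes of a gene, 2 without neutron array 1, 5, or 6, 1 with the replicate number as a block, and 0 with normexp. Cd3e itself was 0.53 higher, with an adjusted p of 0.0966 by limma. Neutron alone and 25% mixed field shared a scan session, and no member was differentially expressed between them, against 4.01% of genes higher after neutron alone. Of the 7, 2 were higher at an unadjusted p below 0.05, Ccr7 by 0.98 (adjusted p = 0.0124 by limma) and Satb1 by 0.58. At that level 3208 of all 15076 genes were higher and 2755 lower. Without array 1 of the 25% field, 1 member was differentially expressed.

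The second probes gave larger decreases for Lef1 and Tcf7 in the neutron-containing groups. Over the 21483 probes that passed the background filter, the second Lef1 probe changed by −1.70, −2.12, −1.96, −1.31, and −1.06 in the 5 exposures and was differentially expressed in the first 4, where the brighter probe was in 2. The second Tcf7 probe changed by −1.38, −1.88, −1.78, −1.35, and −1.27 and was differentially expressed in all 5, where the brighter probe was in 1. Both Bcl11b probes were differentially expressed in all 5. For probes, the share of all probes lower was 16, 13.2, 15.3, 13.3, and 19.7%.

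The difference between the probes of a gene on the same array was then compared with the controls. A shift common to all probes of an array does not touch it. For Lef1 the second probe minus the brighter was −1.44 ± 0.07 in the controls and −1.41 ± 0.11 after x-rays (SD, n = 6; exact two-sided permutation p = 0.675). In the 5, 15, and 25% fields and after neutron alone it differed from the controls by −0.42, −0.71, −0.55, and −0.71, with exact permutation p of 0.0152, 0.0108, 0.00866, and 0.00216, the last being the smallest that 6 against 6 mice allow. For Tcf7 the changes were 0.05 after x-rays and −0.60, −0.96, −0.83, and −1.11 in the others, with exact permutation p from 0.0108 to 0.00216 in the latter. These are 15 comparisons, and their p are not adjusted. For Bcl11b only the 15% field gave an exact permutation p under 0.05, 0.00649, with a change of −0.64.

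The gap also differed between scan sessions of the same group. In session 4, where 1 mouse of each group was scanned, the change of the Lef1 gap was −0.06 after x-rays, 0.01 after the 5% field, and −0.01 after the 15% field, and that of the Tcf7 gap 0.26, −0.05, and 0.28. The 1 control scanned in session 4 had a Tcf7 gap of −3.00, below the 5 of session 1 (−2.44 to −1.91). Sessions 2 and 3 held no control, and the part of the session was not tested. Over the 3464 genes with at least 2 probes above background, the same gap changed by a median of −0.10, −0.16, −0.11, and −0.14 in the 4 neutron-containing groups, and between 23 and 30% of genes had a change as low as that of Lef1, or between 11.9 and 22.2% as low as that of Tcf7.

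**Figure D4:**
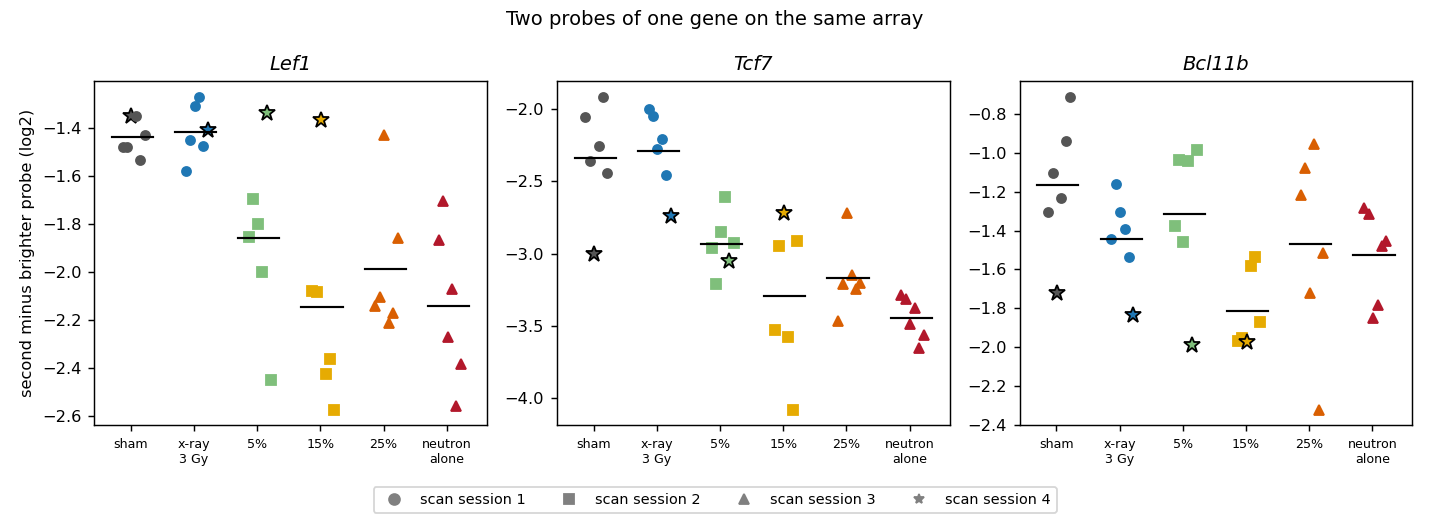
Log2 level of the second probe minus that of the brighter probe of the same gene on the same array (y axis) for Lef1, Tcf7, and Bcl11b, 1 point per mouse, with the group mean as a line and the scan session as the marker (stars, session 4). For Lef1 the stars of the 5 and 15% groups lie at the level of the controls, above every other mouse of their groups.

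Other genes of the same circuits were followed with lists of homing and trafficking genes, interleukin-7 signalling genes, transcription factors, and surface and signalling genes of naive T cells. The shares of all genes lower in the 5 exposures, 16.9, 14, 16.6, 13.9, and 20.4%, stand beside each list. The counts after neutron alone of 1 of 7 interleukin-7 genes, 1 of 8 surface and signalling genes, and 3 of 15 T-cell receptor genes were at or below that share, as was 1 of 8 surface and signalling genes in the 25% field. The count of 1 of 7 interleukin-7 genes in the 25% field lay near its share. Of 7 homing genes tested, 3, 3, 2, 3, and 2 were differentially expressed and lower in the 5 exposures, with medians of −1.19, −1.35, −1.19, −0.90, and −0.42. S1pr1, the receptor that lets T cells leave lymph nodes, fell in all 5, changing by −2.26 after x-rays and −1.23 after neutron alone. Ccr9, a chemokine receptor of gut homing, fell in the 4 neutron-containing groups, changing by −1.04 to −1.85. Its change after x-rays, −1.19, was within that range but did not pass. Itgal, an integrin chain, was differentially expressed and higher after neutron alone, by 0.76. Ccl21a was not on the array.

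In interleukin-7 signalling, 4, 2, 2, 1, and 1 of 7 genes tested were lower, with medians between −1.07 and −0.65. Il2rg, the receptor chain that pairs with Il7r, fell in the 4 groups given 3 Gy, by −1.35 after x-rays and −1.43 after the 5% field. Jak3, the kinase bound to Il2rg, fell after x-rays and the 5% field, changing by −1.33 and −1.36, and Stat5a, a factor activated by the receptor, fell after x-rays and the 15% field, changing by −1.24 and −1.10. The change of Stat5a in the 5% field, −1.06, did not pass. The ligand Il7 was below background. After neutron alone Jak1 was higher, by 1.13, and Bcl2, a survival factor, was lower (−0.83). In the groups given 3 Gy neither passed, although some changes there were larger. Jak1 changed there by 0.02 to 1.26, the latter after the 15% field, and Bcl2 by −0.65 to −1.01.

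Of 12 transcription factors tested, 6, 8, 8, 7, and 8 were lower, with medians of −1.22, −1.46, −1.97, −1.40, and −0.96. Bach2, a repressor of effector programmes that B cells also use, fell in all 5 exposures, changing by −3.74, −3.68, −4.20, −2.89, and −1.54. Foxo1, which drives Il7r and Klf2 in T cells, fell in all 5, changing by −2.41 after x-rays and −0.96 after neutron alone, and Foxp1, a factor of quiescence, by −2.36 and −1.21. Runx3, a factor of CD8 effector cells, was higher after neutron alone, by 1.38, and its change of 1.00 after x-rays did not pass. Among 8 surface and signalling genes 2, 3, 3, 1, and 1 were lower. Dapl1 fell in all 5, changing by −2.31, −2.50, −2.50, −1.69, and −1.07. Nsg2 fell in the x-ray, 5%, and 15% groups, changing by −1.43 to −1.83, and Themis, which tunes T-cell receptor signals, in the 5 and 15% groups, changing by −1.67 and −1.47.

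The T-cell receptor and co-receptor list had 5, 6, 7, 4, and 3 of 15 genes lower, with medians of −0.89, −1.29, −1.11, −0.54, and −0.48. Cd8a, a co-receptor chain of cytotoxic T cells, fell in the 4 groups given 3 Gy, changing by −1.58 to −2.48. Cd8b1, the other CD8 gene of the list, passed in none, with changes of −0.26, −1.40, −0.94, −0.88, and 0.08 in the 5 exposures. Cd4, another co-receptor of the list, had changes above 0 in all 5 exposures (0.07 to 1.19) and passed in none. Cd2 and Cd6, adhesion and co-stimulatory receptors, fell in all 5, changing by −1.22 to −1.88 and by −0.90 to −1.60. Of 19 effector and memory T-cell genes, limma found none differentially expressed and lower in any exposure. At an unadjusted p below 0.05, 0, 2, 1, 0, and 1 were lower and 0, 2, 10, 13, and 5 higher. Of all 15076 genes, 5409, 4395, 4616, 4473, and 5452 were lower at that level and 4208, 3453, 3801, 3695, and 4195 higher. The counts higher after x-rays, the 5% field, and neutron alone did not exceed the share of all genes. Differentially expressed and higher were 0, 0, 0, 4, and 3, against 12.9, 9.01, 12.6, 10.9, and 16.1% of all genes, and the count after neutron alone lay near its share. Those higher after the 25% field were Ifng, Il2rb, Gzmb, and Tbx21, by 0.97 to 1.15, and those after neutron alone were Gzmk, a granzyme (2.28), Cx3cr1 (1.30), and Cd44 (1.04). In the 25% field 4 of 7 NK-cell genes were also higher at an unadjusted p below 0.05 by limma, and 0 were lower. The median change there was 0.81 for the NK-cell list and 0.79 for the effector and memory list. The part of NK cells in the levels of the effector and memory list was not tested. Klrg1, a receptor of effector cells, had changes of −0.28 to 1.53, and Id2, a factor of effector T cells and NK cells, changes of 0.26 to 1.23, neither of which passed.

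B-cell markers were lower as well. Of 10 markers, 10 were lower in each 3 Gy group and 9 after neutron alone, with median changes of −4.31, −3.95, −4.18, −4.35, and −1.47. The summed level of the list, as intensity relative to the array median, ran from 2149 to 3832 in the controls, from 59.5 to 606 over the 4 groups given 3 Gy, and from 898 to 1227 after neutron alone. Fcer2a, the low-affinity IgE receptor, changed by −5.63 after x-rays and −2.46 after neutron alone, Ebf1, the B-lineage factor, by −5.72 and −1.53, and Cd79b, a chain of the B-cell receptor, by −4.86 and −1.56. The part of B cells in the levels of the members, of Bach2, Foxo1, and Foxp1, was not tested.

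Of the other blood cells, 6 red-cell genes had median changes of 2.67, 1.91, 2.09, 1.87, and 1.52, with 5, 5, 5, 3, and 6 higher. Their summed level ranged from 21130 to 28160 in the controls and from 19310 to 93210 in the exposed mice, and its part in the members' levels was not tested. Ank1, Klf1, and Slc4a1, genes of the red-cell membrane skeleton, of erythroid transcription, and of anion exchange, rose in all 5. Of all genes 12.9, 9.01, 12.6, 10.9, and 16.1% were higher in the 5 exposures and 16.9, 14, 16.6, 13.9, and 20.4% lower, to be read beside each count of this paragraph. NK-cell genes, 7 in all, had 0, 0, 1, 0, and 1 higher and none lower, and Cd244 was the one that rose, after the 15% field (2.00) and neutron alone (1.19). These counts of 1 of 7 lay near the share of all genes. At an unadjusted p below 0.05 by limma, 0, 1, 2, 4, and 1 NK-cell genes were higher and 0, 1, 1, 0, and 1 lower. Klre1 and Klra8, NK-cell receptors, passed in none. Among 9 neutrophil genes Ngp and Camp, of the secondary granules, rose in all 5, Ngp by 4.62 after x-rays and 2.16 after neutron alone, and Csf3r fell in 3. Of 7 monocyte genes, Csf1r rose after neutron alone and Ly86 fell in the 25% field, with Cd14 passing in none. Of 6 platelet genes Pf4 rose in 3 exposures and Gp1ba in 1, and Ppbp passed in none.

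**Figure D5:**
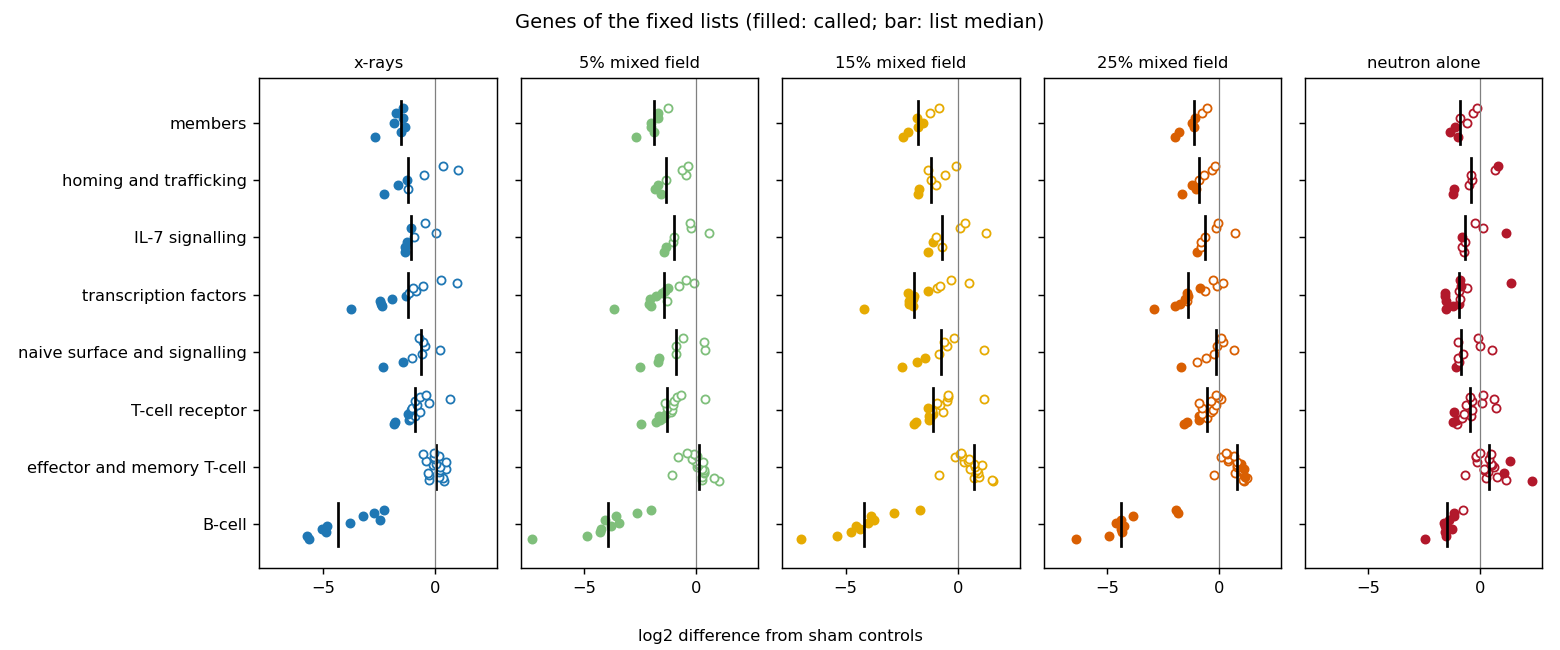
Difference in mean log2 level from the controls (x axis) for every tested gene of 8 lists, 1 panel per exposure (6 mice per group); filled points were differentially expressed, and the bar is the median of the list. The naive T-cell lists lie below 0 with medians from −1.97 to −0.16, the effector and memory list at or above 0 (0.05 to 0.79), and the B-cell list lowest.

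The genes whose pattern was nearest to each member were found over the 36 arrays, as those with the smallest root-mean-square difference in level once the control mean was subtracted. For Ccr7 they were BC094916, Slc9a7, and Dapl1, with differences of 0.33, 0.34, and 0.37 on the log2 scale. For Il7r they were Nsg2 (0.17, the closest match of any member), Gpr171, and Tnfrsf26, and for Satb1 Dgka, Limd2, and Gimap6 (0.24 to 0.27). Tcf7 had Btg1, Lef1, and Rapgef6 (0.32 to 0.36), the only case where a member was among the nearest genes of another. Lef1 had Fam78a, Pydc3, and Serp2 (0.28 to 0.32). Klf2 was nearest to Zzz3, Cdt1, and Phf20l1 (0.27 to 0.31), and Bcl11b to Akna, Sidt1, and Gbp4 (0.28 to 0.29).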

How the data were processed

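Blood RNA of 36 mice was measured on single-colour Agilent arrays, 1 per mouse. The deposited scanner files hold linear intensities, background-corrected by the authors within each array by Agilent Feature Extraction 12.0.2 per the file headers and labels and not normalized between arrays. A table of log2 values, normalized and filtered by the authors, was also deposited and was used as an alternative. Here intensities were put on the log2 scale, non-uniform spots were dropped, spots of the same probe were averaged, and the median of each array was set to 0. A probe was kept if over 75% of arrays showed it as positive and significant against background and if 20% or more of them departed by 1.5-fold or more from its median. The brightest probe stood for a gene. Comparisons were made with limma 3.58.1 in R 4.3.3 on the 12 arrays of each comparison, with Benjamini-Hochberg adjustment over all genes, and the fits were tested on simulated data. Probe gaps were compared by exact two-sided permutation. Plots used matplotlib 3.10.9 and numpy 2.4.6 under Python 3.11.15. Array numbers limit the precision. The p-values of limma set a difference of means against the spread between the arrays of a group, 1 per mouse. That spread also holds differences of slide and scan session where a group was split over them.

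The members and the gene lists were chosen with earlier results of these data known. Named in the text are the members, Cd3e, the 3 genes of each list with the largest mean change over the exposures, and the 3 genes nearest to each member. Some genes that this rule takes in are not reported here. Cd3d, Cd3g, Cd4, Cd8b1, Itgal, Jak1, Bcl2, Runx3, Csf1r, Ifng, Il2rb, Gzmb, Tbx21, Cx3cr1, and Cd44 were named after their values were seen. Symbols follow the annotation in the scanner files. The alternatives tried were other scalings (75th percentile, probes above background on all arrays, and quantile normalization), normexp background correction (offset 50), a floor at 10, other filters, the mean of probes, a single model, the deposited table, blocks for replicate number, slide, and scan session, array weights, adjusted p alone, another reference than Cd3e, and leaving out each array. Replicate numbers did not pair the arrays: residuals of same-numbered arrays had a mean correlation of 0.04 over 90 pairs, with −0.01 over the 450 others.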

Additional observations from a re-analysis of the deposited data

Results flagged for a closer look

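The difference between neutron alone and x-rays stood out for 4 members because their changes against the controls differed between these exposures by a test of the difference itself (limma, 6 mice per group). Ccr7 was higher after neutron alone by 1.67 on the log2 scale, Lef1 by 1.37, Tcf7 by 1.27, and Satb1 by 1.21. By their second probes Lef1 was higher by 0.64 and Tcf7 by 0.11, which did not pass, and with the mean of the probes of a gene the count was 2 (Ccr7 and Satb1). All arrays of neutron alone were scanned in a session of their own with the 25% field, so that session and exposure cannot be told apart here. No group of the members or of Cd3e held an outlying array among 48 tested.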

How the results depend on the processing

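Counts of members differentially expressed depended most on the background correction and on the blocks. With normexp 3, 3, 1, 2, and 1 members were lower than controls after x-rays, the 5, 15, and 25% fields, and neutron alone, 0 differed between neutron alone and x-rays, and relative to Cd3e 2, 3, and 2 were lower in the 5 and 25% fields and after neutron alone. With slide as a block 2, 0, and 0 were lower after x-rays and the 5 and 15% fields, and 0, 0, and 0 relative to Cd3e. With scan session as a block 0 and 1 were lower in the 5 and 15% fields, and 0 and 1 relative to Cd3e. With session as a random block 4 differed between the 25% field and x-rays, where 5139 of all genes did. Relative to Cd3e 2 and 0 were then lower in the 25% field and after neutron alone. By adjusted p alone 5 were lower after neutron alone, 7 after x-rays relative to Cd3e, and 1 differed between neutron alone and the 25% field, as it did with the 75th percentile, the common probes, quantile normalization, the stricter background filter, and array weights (1 each). The deposited table gave 5 after neutron alone, and the mean of probes 2 between neutron alone and x-rays. Relative to Cd3e, quantile normalization gave 1, 2, 3, and 3 in the 5, 15, and 25% fields and neutron alone, a single model 5 and array weights 6 after x-rays, and the mean of 3 CD3 genes 3 in the 15% field and 1 after neutron alone. Cd3e was not in the deposited table and did not pass the variation filter under the 75th percentile or the common probes, so these gave no value relative to it. With the replicate number as a block, although the numbers did not pair the arrays, 5, 5, 4, 3, and 2 members were lower than controls, 0, 0, 0, and 1 differed from x-rays, 0 differed between neutron alone and the 25% field, and 2, 1, 2, 4, and 4 were lower relative to Cd3e.

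Leaving out each array in turn gave 6 to 7, 5 to 7, 5 to 5, 2 to 5, and 2 to 3 members lower than controls, 0 to 0 in the 5, 15, and 25% fields and 2 to 4 after neutron alone against x-rays, 0 to 1 between neutron alone and the 25% field, and 2 to 6, 3 to 5, 5 to 5, 4 to 5, and 4 to 5 relative to Cd3e. The count in the 25% field was 2 without control 2 or 3, and 3 without control 5 or 6 or array 3 or 5 of that field. Between neutron alone and x-rays it was 2 without neutron array 1, 5, or 6, between neutron alone and the 25% field 1 without array 1 of that field, and after x-rays relative to Cd3e 6 without x-ray array 1. No member changed sign in these in the comparisons with controls or of neutron alone with x-rays. Under other settings, Tcf7 after neutron alone was 0.11 with the 75th percentile, 0.028 with the common probes, and 0.0013 with quantile normalization. Neutron alone against x-rays, normexp gave −0.073 for Il7r, −0.69 for Klf2, and −0.17 for Bcl11b, and the deposited table −0.17 for Tcf7 and −0.20 for Bcl11b. Relative to Cd3e in the 5% field, normexp gave 0.39 for Tcf7, 0.20 for Il7r, and 0.57 for Bcl11b. In the 15% field Tcf7 was 0.11 with quantile normalization and 0.0070 with the 3 CD3 genes, and Klf2 0.46 with session or slide as a block. After neutron alone Tcf7 was 0.0051 with quantile normalization, 0.12 with normexp, and 0.28 with the 3 CD3 genes, and Lef1 0.10 with the latter. The cause was not tested.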
